A study of Mus musculus with 9 samples.

Results

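The genes described here are 10 members of the NF-kB system: the transcription factor genes Nfkb1, Nfkb2, Rela and Relb, the inhibitor and feedback genes Nfkbia, Nfkbie, Tnfaip3 and Birc3, and the adhesion molecule genes Icam1 and Vcam1. They were chosen by name, and each matched 1 entry among the 54134 distinct entries of the count table. The measurements are poly(A) RNA sequencing counts from cultured mouse cells labelled HT22, a hippocampal neuronal line. The sample labels give HT-4 as the cell type and WT as the genotype. There were 3 groups of 3 libraries. Cells of the Hb+NTR1 group were given oxyhemoglobin together with an agent written NTR1 in the sample labels and NGR1 in the series title, cells of the Hb group were given oxyhemoglobin alone, and control cells were left untreated. The labels call the Hb+NTR1 group ganyu. All groups grew in the same serum-containing medium. No group had the agent without oxyhemoglobin, and the labels state neither dose nor time. Nothing in the labels says that the libraries of a group were separate cultures, so the p-values measure the spread between these libraries, which may be technical.

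NF-kB factors are dimers built from proteins with a shared Rel homology domain. In resting cells IkB proteins hold the dimers in the cytoplasm, and signals from cytokine or pattern receptors lead the IKK kinases to mark IkB for destruction, so that the dimers reach the nucleus. A slower branch converts the Nfkb2 precursor and releases dimers that contain RelB. Genes switched on by the dimers include their own inhibitors, which close a negative feedback loop, and cell surface adhesion molecules that bind leukocyte integrins.

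Adding NTR1 to oxyhemoglobin went with lower RNA of all 4 factor genes and of Vcam1, while the inhibitor and feedback genes were divided, with Tnfaip3 and Nfkbia higher and Nfkbie and Birc3 lower than with oxyhemoglobin alone. Oxyhemoglobin alone moved none of the measured genes past the threshold. Icam1 was almost without reads in every library. The threshold was an adjusted p of 0.05 in edgeR's quasi-likelihood test, two-sided, with Benjamini-Hochberg adjustment over the 13810 genes that passed the filter on low counts. Icam1 did not pass that filter, so 9 of the 10 members were tested. In Hb+NTR1 against Hb, 2 members were higher and 7 lower, where 30.7% of all tested genes were called higher, 31.6% lower and 62.3% in either direction. In Hb+NTR1 against control, 1 was higher, 7 were lower and 1 was not past the threshold, where 31.4% of all tested genes were called higher, 32.2% lower and 63.6% in either direction. In Hb against control 0 of the 9 were called, where 1.88% of all tested genes were called higher, 1.77% lower and 3.65% in either direction. DESeq2 called 0 of the 9 there as well, and 1 of the 9, Vcam1, had an unadjusted p under 0.05. The median log2 fold change of the 9 members was -0.41 in Hb+NTR1 against Hb, -0.49 in Hb+NTR1 against control and -0.025 in Hb against control, where the medians of all tested genes were -0.011, -0.0042 and 0. The comparisons share libraries, so their values are set side by side and do not repeat each other independently. RNA per cell and cell number cannot be told apart in bulk libraries.

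**Figure D1:**
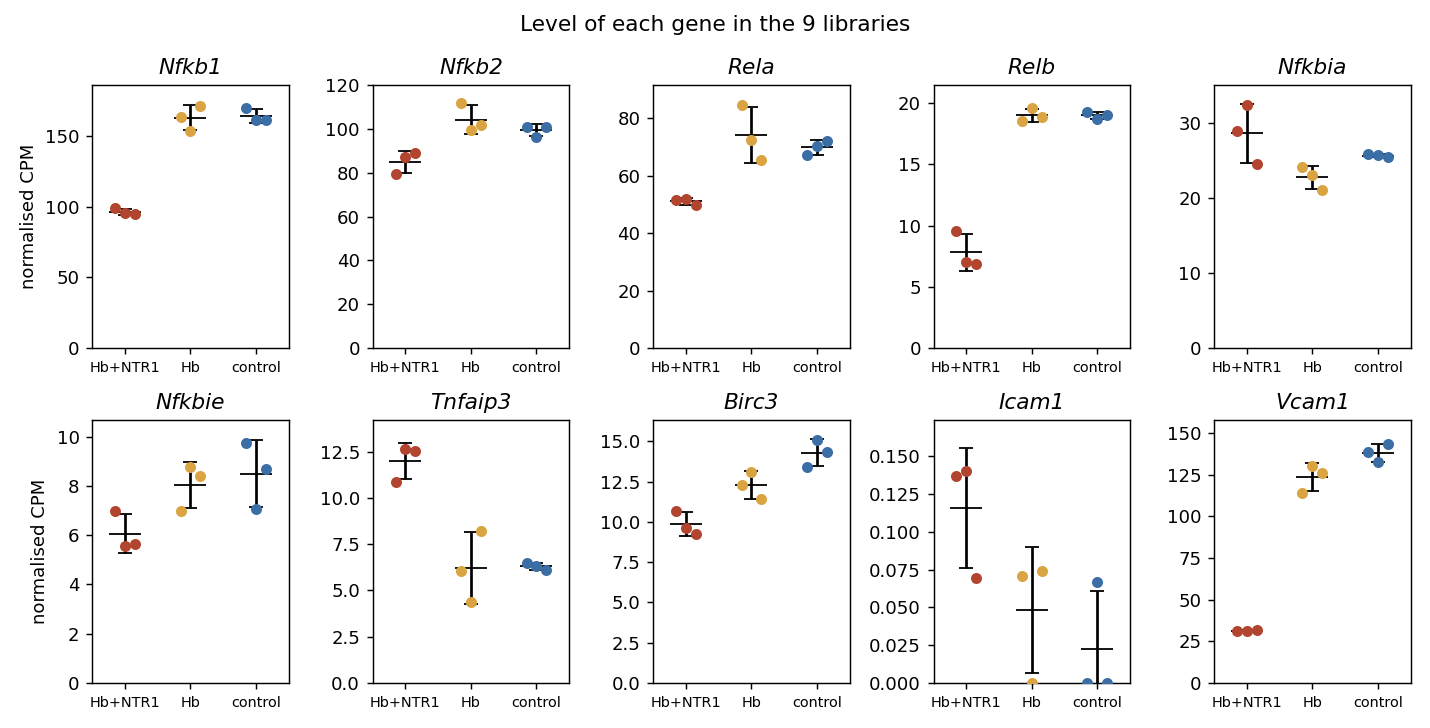
Normalised CPM (counts scaled to library size, linear axes from 0) of each gene in the Hb+NTR1, Hb and control libraries; points are libraries, and the bar and whiskers are the mean and SD over 3 libraries. The Hb+NTR1 points of Vcam1 lie at 31.3 to 31.8 CPM, under every Hb and control point, those of Tnfaip3 lie above them, and the Icam1 axis ends below 1 CPM.

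The library totals lay between 13945507 and 14280053 counts in Hb+NTR1, between 13415648 and 14728662 in Hb, and between 14369813 and 16893746 in control. Most genes on the neuronal marker list did not bear out the neuronal label. In each group 8 of 10 averaged under 1 CPM, and Map2, Snap25 and Gad1 had 0 counts throughout. Syn1 and Tubb3 were expressed, and the identity of the cells was not tested. The neuronal sum was 25.3 to 28.1 CPM in Hb+NTR1, 57.6 to 66.7 CPM in Hb and 57.5 to 57.8 CPM in control, nearly all of it Syn1 and Tubb3. Fibroblast markers had a summed level of 1300 to 1402 CPM in Hb+NTR1, 11290 to 12730 CPM in Hb and 14010 to 14920 CPM in control over 9 genes. Col1a1, Col1a2 and Col3a1 made up most of that sum, while 3 of the 9 genes in Hb+NTR1, 2 in Hb and 2 in control averaged under 1 CPM, Fap and Lum in every group. Summed endothelial markers stood at 3.51 to 4.11 CPM in Hb+NTR1, at 0.888 to 1.63 CPM in Hb and at 1.07 to 1.396 CPM in control over 6 genes, with Cldn5 at 0 counts in all 3 groups. Summed myeloid markers stood at 45.0 to 47.7 CPM in Hb+NTR1, at 5.64 to 6.22 CPM in Hb and at 3.55 to 4.19 CPM in control over 6 genes. Nearly all of the myeloid sum in Hb+NTR1 was Cd68, a lysosomal protein gene, at 45.1 CPM, while Ptprc, the pan-leukocyte gene, stood at 0.162 CPM. Summed astrocyte markers, mostly Slc1a3, stood at 8.08 to 9.27 CPM in Hb+NTR1, at 115 to 138 CPM in Hb and at 199 to 229 CPM in control over 5 genes. These markers move with the same libraries as the results on the members, and their part in those results was not tested.

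Of the factor genes, Nfkb1 encodes the precursor of the p50 subunit, the partner of RelA in the classical dimer. It had 98.8, 95.3 and 94.8 CPM in the Hb+NTR1 libraries, 164, 154 and 172 CPM in Hb, and 169.9, 162 and 161 CPM in control. The Hb+NTR1 libraries all lay below the others, and Hb and control overlapped. Nfkb1 fell 1.69-fold in Hb+NTR1 against Hb (log2 fold change -0.76 ± 0.063, edgeR adjusted p = 3.15e-10) and by nearly the same amount against control (log2 fold change -0.77 ± 0.063, edgeR adjusted p = 2.19e-10). Rela encodes the RelA subunit, which carries the activation domain of the classical dimer. Rela had 51.5, 51.9 and 49.8 CPM in Hb+NTR1, 84.7, 72.4 and 65.5 CPM in Hb, and 67.1, 70.3 and 72.1 CPM in control. The Hb libraries were the most spread and enclosed those of control, while Hb+NTR1 lay below both. Rela fell 1.45-fold in Hb+NTR1 against Hb (log2 fold change -0.54 ± 0.083, edgeR adjusted p = 5.06e-06), and its log2 fold change against control was -0.45 ± 0.083 (edgeR adjusted p = 5e-05).

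Relb encodes the subunit that pairs mainly with the Nfkb2 product in the alternative branch. It had 9.60, 7.02 and 6.89 CPM in Hb+NTR1, 18.6, 19.6 and 18.8 CPM in Hb, and 19.3, 18.7 and 19.0 CPM in control. The 6 libraries without NTR1 lay close to each other, and all Hb+NTR1 libraries were well below. The fall of 2.42-fold against Hb (log2 fold change -1.28 ± 0.13, edgeR adjusted p = 7e-09) was the largest among the 4 factor genes, and against control the log2 fold change was also -1.28 ± 0.13 (edgeR adjusted p = 5.97e-09). Nfkb2, the precursor of p52, moved least of the factors. It had 79.4, 87.0 and 88.9 CPM in Hb+NTR1, 112, 99.6 and 102 CPM in Hb, and 101, 96.4 and 101 CPM in control. The Hb+NTR1 libraries lay below the others by a small margin. Nfkb2 fell 1.23-fold against Hb (log2 fold change -0.29 ± 0.069, edgeR adjusted p = 0.000766) and 1.17-fold against control (log2 fold change -0.22 ± 0.069, edgeR adjusted p = 0.00684). The call against control ended without Hb+NTR1 replicate 1 (edgeR adjusted p = 0.0610). On the opposite strand, the spans of the genes Psd and AC114539.1 cover 299 and 642 of the 4584 exon bases of Nfkb2. Overlap with their exons alone was not measured. Since the strand setting of the counting is not given either, it cannot be told whether reads there were shared between genes. Psd itself had 18.5 CPM in Hb+NTR1, 29.5 CPM in Hb and 25.3 CPM in control.

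The feedback genes did not move in one direction. Tnfaip3 encodes a ubiquitin-editing enzyme that shuts off signalling above the IKK kinases. Tnfaip3 had 10.9, 12.6 and 12.5 CPM in Hb+NTR1, 6.07, 4.37 and 8.24 CPM in Hb, and 6.50, 6.32 and 6.09 CPM in control. All Hb+NTR1 libraries were above the other 6, and the Hb libraries spread on both sides of control. The rise was 1.94-fold against Hb (log2 fold change 0.95 ± 0.17, edgeR adjusted p = 3.87e-05) and 1.90-fold against control (log2 fold change 0.93 ± 0.17, edgeR adjusted p = 4.47e-05). Nfkbia encodes IkB alpha, the inhibitor that is resynthesised first after a signal. Its libraries held 28.9, 32.4 and 24.6 CPM in Hb+NTR1, 24.2, 23.0 and 21.1 CPM in Hb, and 25.9, 25.7 and 25.4 CPM in control. Control lay between the other groups, above every Hb library and within the range of Hb+NTR1. Nfkbia rose 1.26-fold in Hb+NTR1 against Hb (log2 fold change 0.33 ± 0.10, edgeR adjusted p = 0.00816). Against control its log2 fold change of 0.16 ± 0.10 did not pass (edgeR adjusted p = 0.186), with an interval from -0.054 to 0.37. Without Hb+NTR1 replicate 2 the call against Hb ended (edgeR adjusted p = 0.0772), and without Hb+NTR1 replicate 3 the difference from control passed (edgeR adjusted p = 0.0451).

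Nfkbie, which encodes IkB epsilon, a slower inhibitor, went the other way from Nfkbia. It had 6.99, 5.55 and 5.64 CPM in Hb+NTR1, 6.99, 8.75 and 8.38 CPM in Hb, and 9.75, 7.05 and 8.66 CPM in control. The highest Hb+NTR1 library and the lowest Hb library were level to 3 digits. Nfkbie fell 1.33-fold against Hb (log2 fold change -0.41 ± 0.17, edgeR adjusted p = 0.0381) and also against control (log2 fold change -0.49 ± 0.16, edgeR adjusted p = 0.0129). Against Hb the call ended by DESeq2 (adjusted p = 0.113), with library totals as the scale (edgeR adjusted p = 0.0537), and without Hb replicate 2, Hb replicate 3, Hb+NTR1 replicate 2 or Hb+NTR1 replicate 3 (edgeR adjusted p = 0.108, 0.0900, 0.127 and 0.120). Against control it ended without control replicate 1, Hb+NTR1 replicate 2 or Hb+NTR1 replicate 3 (edgeR adjusted p = 0.0842, 0.0567 and 0.0536). Birc3 encodes a ubiquitin ligase of the inhibitor of apoptosis family that acts at the tumour necrosis factor receptor. Birc3 had 10.7, 9.62 and 9.26 CPM in Hb+NTR1, 12.3, 13.1 and 11.4 CPM in Hb, and 13.4, 15.1 and 14.3 CPM in control. The groups lay in 3 separate steps, with no overlap between any of them. Birc3 fell 1.45-fold in Hb+NTR1 against control (log2 fold change -0.53 ± 0.12, edgeR adjusted p = 0.000609) and less against Hb (log2 fold change -0.32 ± 0.13, edgeR adjusted p = 0.0319). The call against Hb ended by DESeq2 (adjusted p = 0.1), with no filter on low counts (edgeR adjusted p = 0.0586), and without Hb replicate 1, Hb replicate 2, Hb+NTR1 replicate 2 or Hb+NTR1 replicate 3 (edgeR adjusted p = 0.0531, 0.106, 0.0847 and 0.113). Birc2 is a close paralogue, so reads common to both genes may be split or lost. Birc2 had a log2 fold change of -0.047 in Hb+NTR1 against Hb (edgeR adjusted p = 0.671).

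Of the adhesion genes, Vcam1 had the largest change of all 9 tested members. It encodes a surface protein that binds the leukocyte integrin with the alpha 4 chain. Vcam1 had 31.3, 31.3 and 31.8 CPM in the Hb+NTR1 libraries, 114, 130.4 and 126 CPM in Hb, and 139, 133 and 143 CPM in control. The Hb+NTR1 libraries were nearly equal to each other and far below the rest, and the Hb libraries lay just under control without overlap. Vcam1 fell 3.93-fold in Hb+NTR1 against Hb (log2 fold change -1.97 ± 0.073, edgeR adjusted p = 1.22e-16) and 4.39-fold against control (log2 fold change -2.14 ± 0.073, edgeR adjusted p = 1.82e-17). In the authors' deposited table of Hb+NTR1 against control, which holds 691 genes, Vcam1 was the 1 member present, with a log2 fold change of -2.14. That is far fewer genes than the 8782 called here in the same comparison, so absence from it says little about the other members. The span of an antisense gene, Gm43109, covers 781 of the 8870 exon bases of Vcam1. Gm43109 had 0.0695 CPM in Hb+NTR1, 0.663 CPM in Hb and 0.799 CPM in control. As the strand setting of the counting is not given, it cannot be told whether reads were shared between Vcam1 and Gm43109. Icam1, which encodes the ligand of the leukocyte integrin with the beta 2 chain, had 2, 2 and 1 counts in Hb+NTR1, 1, 0 and 1 counts in Hb, and 0, 1 and 0 counts in control. Summed over 3 libraries this is 5 counts in Hb+NTR1 (95% exact Poisson interval 1.62 to 11.7), 2 in Hb (0.242 to 7.22) and 1 in control (0.0253 to 5.57), and the intervals, which cover counting error only, overlap. In a fit with no filter, Icam1 had edgeR adjusted p = 0.616 in Hb+NTR1 against Hb. A difference in Icam1 was not detectable at this depth. The span of an antisense gene, Gm47079, covers 511 of the 4360 exon bases of Icam1, and the same limit on shared reads holds there.

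**Figure D2:**
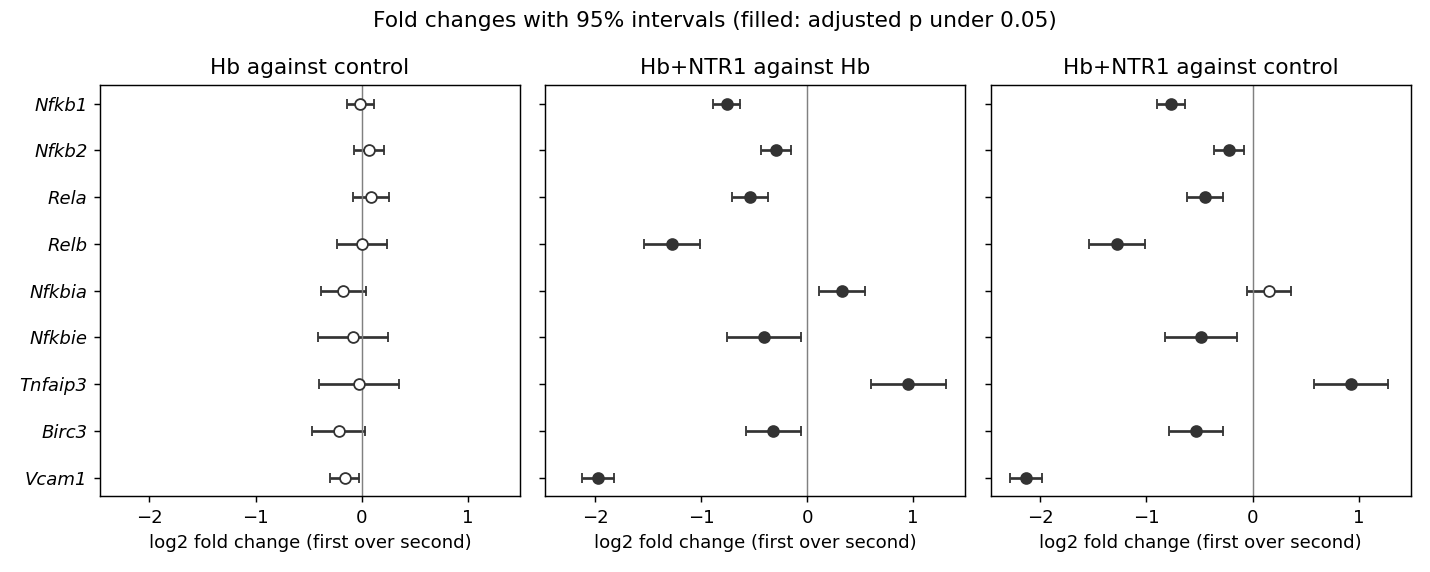
Log2 fold changes of the 9 tested genes in the 3 comparisons, first-named group over second, with 95% intervals; filled points had an edgeR adjusted p under 0.05. No point is filled in Hb against control, while in Hb+NTR1 against Hb all are, with Vcam1 at -1.97 and Tnfaip3 at 0.95 as the extremes.

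Oxyhemoglobin alone was compared with control to ask what the blood pigment did to these genes. The log2 fold changes were -0.011 for Nfkb1, 0.069 for Nfkb2, 0.088 for Rela and 0.00099 for Relb, with edgeR adjusted p of 0.96, 0.676, 0.643 and 0.998. Their 95% intervals ran from -0.24 for the lowest bound, in Relb, to 0.26 for the highest, in Rela. Falls as large as those of Nfkb1, Nfkb2, Rela and Relb in Hb+NTR1 lie outside the intervals of the same genes. The Nfkb2 interval ran from -0.073 to 0.21. Nfkbie and Tnfaip3 had log2 fold changes of -0.081 and -0.025 (edgeR adjusted p = 0.857 and 0.968), and the Tnfaip3 interval, from -0.40 to 0.35, was the widest. For 3 of the 9 members, Nfkbia, Birc3 and Vcam1, every Hb library lay below every control library, and 19.6% of all tested genes had no overlap between these groups in either direction. Their log2 fold changes were -0.17 for Nfkbia, -0.22 for Birc3 and -0.16 for Vcam1, with edgeR adjusted p of 0.439, 0.398 and 0.213. Vcam1 passed without Hb replicate 2 (log2 fold change -0.20, edgeR adjusted p = 0.0432). The libraries of 9 of the 9 members did not overlap in Hb+NTR1 against Hb, as for 64.7% of all tested genes. Those of 8 did not in Hb+NTR1 against control, as for 69.9%. For Nfkbie the separation from Hb was close to a tie, at 6.991 CPM in Hb+NTR1 replicate 1 against 6.992 CPM in Hb replicate 1.

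Promoter sequence is given for the members whose window holds the kappaB consensus, the binding motif of the dimers. The members were chosen as parts of the NF-kB system, whose dimers switch on their own inhibitors. The share of members with the motif is therefore not independent of that choice. The consensus was searched on both strands as 3 G, a purine, 2 bases of any kind, 2 pyrimidines and 2 C, in RefSeq windows of GRCm38.p6 that start 250 bases before a gene's start and end 50 bases after it. Windows were found for 7 of the 10 members, and not for Nfkb1, Relb and Vcam1. The motif was present in a window of 4 of these 7, Nfkb2, Nfkbia, Nfkbie and Tnfaip3, and in 9.55% of the 27025 genes with windows. It was not found in the windows of Rela, Birc3 and Icam1. Only this exact pattern was searched, so a site that departs from it at any base would be missed. The windows below are in the direction of transcription with matches in capitals, and neighbouring matches can overlap. They lie at chr19:46304487-46304786 (plus strand) for Nfkb2, the first of its 3 windows, at chr12:55492598-55492897 (minus strand) for Nfkbia, at chr17:45555450-45555749 (plus strand) for Nfkbie and at chr10:19015361-19015660 (minus strand) for Tnfaip3.
Nfkb2: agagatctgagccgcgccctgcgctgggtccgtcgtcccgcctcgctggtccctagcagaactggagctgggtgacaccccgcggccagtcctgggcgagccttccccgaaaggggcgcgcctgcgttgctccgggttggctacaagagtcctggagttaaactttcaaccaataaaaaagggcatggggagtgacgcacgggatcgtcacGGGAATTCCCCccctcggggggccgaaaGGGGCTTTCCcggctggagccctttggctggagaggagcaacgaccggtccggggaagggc
Nfkbia: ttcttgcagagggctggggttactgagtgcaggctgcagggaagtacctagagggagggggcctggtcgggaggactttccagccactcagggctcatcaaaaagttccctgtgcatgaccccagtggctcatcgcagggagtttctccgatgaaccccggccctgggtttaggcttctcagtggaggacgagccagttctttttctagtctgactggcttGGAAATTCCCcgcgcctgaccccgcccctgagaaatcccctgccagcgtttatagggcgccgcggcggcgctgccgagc
Nfkbie: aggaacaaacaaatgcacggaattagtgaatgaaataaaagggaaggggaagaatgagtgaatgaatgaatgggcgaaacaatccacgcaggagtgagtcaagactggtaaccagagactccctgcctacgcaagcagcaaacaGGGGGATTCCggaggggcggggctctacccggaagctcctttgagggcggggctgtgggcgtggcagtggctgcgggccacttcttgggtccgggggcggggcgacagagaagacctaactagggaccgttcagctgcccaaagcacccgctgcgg
Tnfaip3: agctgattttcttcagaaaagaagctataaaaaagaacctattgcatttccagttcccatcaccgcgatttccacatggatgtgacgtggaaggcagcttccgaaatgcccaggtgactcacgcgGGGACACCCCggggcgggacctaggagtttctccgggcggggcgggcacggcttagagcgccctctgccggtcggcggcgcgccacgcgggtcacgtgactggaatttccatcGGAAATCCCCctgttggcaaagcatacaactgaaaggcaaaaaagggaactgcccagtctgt

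The 4 genes with matches did not share a direction. In Hb+NTR1 against Hb, Nfkbia and Tnfaip3 were higher and Nfkb2 and Nfkbie lower. The Nfkbia match, on the strand opposite to the gene, began 29 bases before the gene's start, and the nearer of the Tnfaip3 matches began 12 bases before the start of Tnfaip3. A match is a string of letters and does not show that a factor was bound in these cells.

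Levels of different genes were compared per kilobase of exon, with all annotated exons of a gene merged. On this scale Nfkb2, Nfkbia and Rela led in Hb+NTR1, with 18.6 ± 1.09, 17.8 ± 2.43 and 16.6 ± 0.37 CPM per kb (SD, n = 3). The Nfkbia libraries overlapped those of Nfkb2 and of Rela, while Nfkb2 and Rela did not overlap each other. Nfkb1 and Vcam1 followed there at 7.98 ± 0.183 and 3.54 ± 0.0367 CPM per kb. In Hb, Rela and Nfkb2 led with 24.1 ± 3.16 and 22.8 ± 1.42 CPM per kb, and Nfkbia, Vcam1 and Nfkb1 stood close together at 14.2 ± 0.945, 13.9 ± 0.959 and 13.5 ± 0.729 CPM per kb. Control kept that order for these 5 genes, with Vcam1 at 15.6 ± 0.606 CPM per kb. Relb, Birc3, Nfkbie and Tnfaip3 were lower, between 1.66 and 2.02 CPM per kb in Hb+NTR1, between 0.862 and 4.89 CPM per kb in Hb and between 0.872 and 4.89 CPM per kb in control. The step between Relb and the others of this set, present in Hb and control, was within the spread in Hb+NTR1. Icam1 was last in all groups at 0.0265, 0.0111 and 0.00508 CPM per kb in Hb+NTR1, Hb and control. The order depends on the length used. Nfkb1 has 12061 bases of merged exons but a longest transcript of 4149 bases, and per kilobase of longest transcript it led in all 3 groups, at 23.2, 39.3 and 39.6 CPM per kb in Hb+NTR1, Hb and control.

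**Figure D3:**
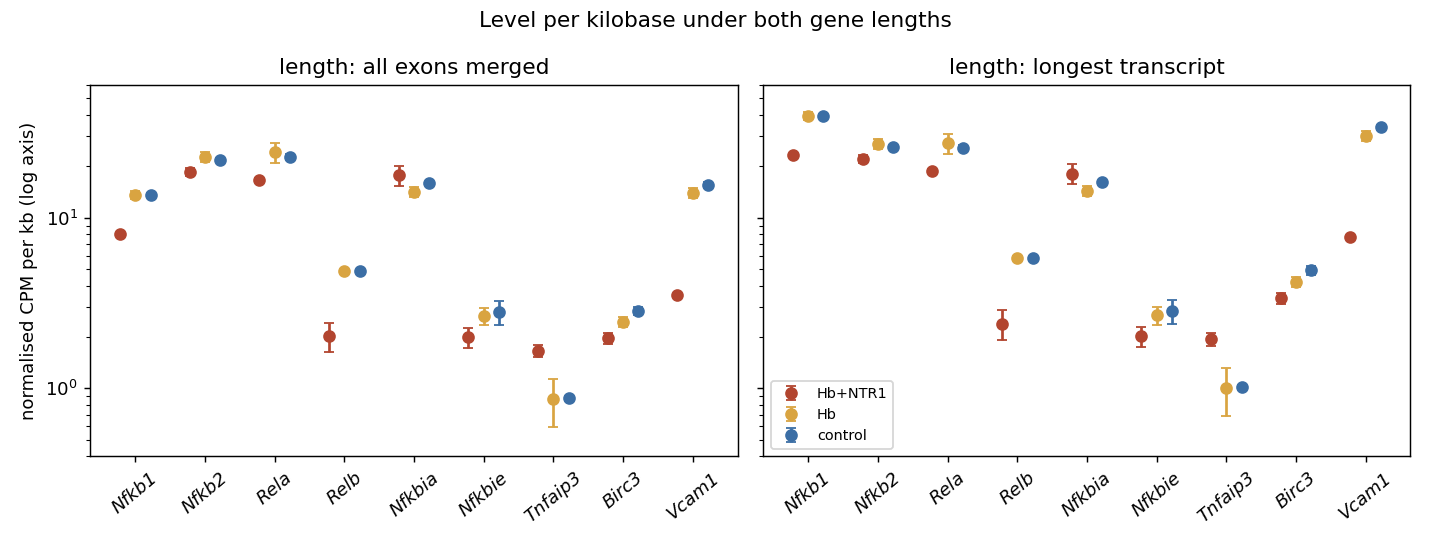
Mean normalised CPM per kilobase (log axis, whiskers SD over 3 libraries) of the 9 tested genes in Hb+NTR1, Hb and control, with gene length taken as all merged exons on the left and as the longest transcript on the right. Relb, Nfkbie, Tnfaip3 and Birc3 sit at the bottom under both lengths, and Nfkb1 in Hb stands at 13.5 CPM per kb on the left and 39.3 on the right.

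The 10 genes lie on GRCm38 chromosomes 3 (Nfkb1, Vcam1), 7 (Relb), 9 (Birc3, Icam1), 10 (Tnfaip3), 12 (Nfkbia), 17 (Nfkbie) and 19 (Nfkb2, Rela), and all are protein coding. Vcam1 spans chr3:116109949-116129688 on the minus strand in GENCODE M21, the same span as in the authors' deposited table.

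Genes whose pattern over the 9 libraries was most like that of a member were named by Pearson r of log2 CPM among 10565 genes, as a description. The libraries fall into groups, so a high r can reflect the group means alone. For Vcam1 they were Mthfd1l, Efemp1 and Dctd (r = 0.999, 0.999 and 0.998). Mthfd1l, a mitochondrial folate enzyme gene, had 66.7 CPM in Hb+NTR1, 168 CPM in Hb and 178 CPM in control, and Efemp1, a fibulin of the extracellular matrix, had 180.5, 868 and 1064 CPM in these groups. Thsd7a, Chd3 and Ddr2 were nearest to Nfkb1 (r = 0.997, 0.997 and 0.996), and Ddr2, a collagen receptor kinase gene, had 180.2 CPM in Hb+NTR1, 368 CPM in Hb and 369 CPM in control. Cenpt, Crybg1 and Efna4 were nearest to Relb (r = 0.994, 0.993 and 0.992). Birc3 was nearest to Rpl7a-ps11, Apex1 and Magee1 (r = 0.970, 0.968 and 0.968), and Nfkbia to Acot8, Pofut2 and Gm11110 (r = 0.955, 0.931 and 0.916).

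The rest of the pathway was taken from a list of 106 genes in 8 roles, of which 83 were tested. The list was chosen with earlier results of these data known, so its shares of calls are not independent of them. Some of the 83, such as Bcl3 and Selp, passed the filter on low counts only through the groups where they were high. In Hb+NTR1 against Hb, 45 of the 83 were higher, 18 lower and 20 not past the threshold, or 75.9% called beside the 62.3% of all tested genes given above, at a median log2 fold change of 0.26. In Hb+NTR1 against control the counts were 44 higher and 19 lower, or 75.9% called beside 63.6% of all tested genes, at a median of 0.25. Oxyhemoglobin alone gave 2 higher and 5 lower, or 8.43% of the 83 beside 3.65% of all tested genes, at a median of 0.0037. Receptor genes were higher in Hb+NTR1 against Hb in 8 of 10, lower in 0 and not past the threshold in 2, or 80% called. Tlr4, the lipopolysaccharide receptor, had 249, 233 and 246 CPM in Hb+NTR1, 101, 90.1 and 114 CPM in Hb, and 111, 108 and 109 CPM in control. Its Hb+NTR1 libraries lay far above the rest, and it rose 2.38-fold against Hb (log2 fold change 1.254 ± 0.072, edgeR adjusted p = 3.34e-13). Tnfrsf12a, the receptor of the cytokine TWEAK, had 186 CPM in Hb+NTR1, 109 CPM in Hb and 124 CPM in control.

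Of the adaptor and kinase genes, 4 of 17 were higher, 7 were lower and 6 were not called in Hb+NTR1 against Hb, and the share called, 64.7%, was near the 62.3% of all tested genes. Irak2, a kinase of the interleukin 1 and Toll-like receptor route, had 19.5, 20.1 and 21.3 CPM in Hb+NTR1, 9.82, 10.9 and 7.12 CPM in Hb, and 10.96, 9.44 and 7.66 CPM in control. The ubiquitin ligase gene Traf6 was also higher in Hb+NTR1, at 68.6 CPM against 41.6 CPM in Hb, while Traf2, an adaptor of the tumour necrosis factor receptors, and Tab1, a partner of the kinase TAK1, were lower at 19.9 and 18.9 CPM against 33.9 and 32.6 CPM in Hb. Of the IKK genes 3 were higher, 1 lower and 1 not past the threshold, or 80% called. Chuk (IKK alpha) had 137 CPM in Hb+NTR1 against 96.4 CPM in Hb. Ikbke (IKK epsilon) was the lower one, with 11.2, 9.20 and 9.05 CPM in Hb+NTR1, 21.5, 14.3 and 19.7 CPM in Hb, and 14.99, 17.6 and 15.4 CPM in control. Among the other factors and IkB proteins 3 were higher, 1 lower and 1 not past the threshold, or 80% called. Rel, the remaining factor gene of the family, went opposite to the 4 factor members, at 46.3 CPM in Hb+NTR1, 35.3 CPM in Hb and 34.0 CPM in control (log2 fold change 0.39 ± 0.11 against Hb, edgeR adjusted p = 0.00246). Bcl3, a nuclear IkB protein that binds p50 and p52 dimers, was the lower one, with 0.274, 0.492 and 0.9747 CPM in Hb+NTR1, 7.13, 3.69 and 4.82 CPM in Hb, and 5.48, 6.38 and 4.01 CPM in control. Its Hb+NTR1 libraries rest on 4, 7 and 14 counts, and the log2 fold change against Hb was -3.15 ± 0.35 (edgeR adjusted p = 4.74e-08). Bcl3 passed the filter on low counts through Hb and control, so it could not have been counted as higher. Ubiquitin editing and feedback genes were higher in 9, lower in 3 and not past the threshold in 4 of 16, or 75% called. Tax1bp1, a binding partner of the Tnfaip3 product, had 285 CPM in Hb+NTR1 against 165 CPM in Hb.

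Target genes of NF-kB other than the members also divided. Of the cytokine and chemokine genes 5 of 9 were higher, 3 were lower and 1 was not called in Hb+NTR1 against Hb. The share called was 88.9%, beside 62.3% of all tested genes. Of the 5 higher, Il6 averaged 0.950 CPM in Hb+NTR1 and 0.385 CPM in Hb. With so few reads in Hb, Il6 could hardly have been counted as lower. Ccl2, a monocyte chemokine, had 33.3, 36.6 and 34.5 CPM in Hb+NTR1, 10.6, 12.8 and 12.2 CPM in Hb, and 13.3, 11.9 and 9.31 CPM in control. The rise of 2.94-fold against Hb (log2 fold change 1.55 ± 0.12, edgeR adjusted p = 6.71e-11) stood beside falls of Cxcl5, a neutrophil chemokine, to 18.4 CPM against 47.7 CPM in Hb, and of Csf1, a macrophage growth factor, to 169 CPM against 350 CPM in Hb (edgeR adjusted p = 6.29e-11 and 3.63e-12). Survival and other targets were higher in 7, lower in 3 and not past the threshold in 2 of 12, or 83.3% called. Of the 3 lower, Mmp9 averaged 0.278 CPM in Hb+NTR1 and 1.11 CPM in Hb. Mmp9 passed the filter on low counts through Hb and control, so it could not have been counted as higher. Ier3, an immediate early gene, had 157 CPM in Hb+NTR1 and 46.2 CPM in Hb, and Ptgs2, the inducible cyclooxygenase, had 284 CPM in Hb+NTR1, 144 CPM in Hb and 111 CPM in control. Ptx3, a secreted pentraxin, was lower in steps, with 27.5, 30.0 and 30.8 CPM in Hb+NTR1, 131, 161 and 140.2 CPM in Hb, and 251, 228 and 316 CPM in control, and its fall in Hb against control passed too (log2 fold change -0.88 ± 0.099, edgeR adjusted p = 1.94e-05). The other 6 genes called in Hb against control were Il1r1, Csf1, Plau and Alcam, lower at log2 fold changes of -0.61, -0.49, -0.79 and -0.44, and Fth1 and Ptgs2, higher at 0.74 and 0.38. Among 9 tested genes of leukocyte adhesion 6 were higher, 0 lower and 3 not past the threshold in Hb+NTR1 against Hb, where Vcam1 was lower. The share called, 66.7%, was near the 62.3% of all tested genes. Of the 6, Selp averaged 0.0706 CPM in Hb and 0.128 CPM in control, and Pecam1 0.386 and 0.503 CPM. Selp and Pecam1 passed the filter on low counts through Hb+NTR1, so they could not have been counted as lower. Selp, which encodes P-selectin, had 111, 52 and 98 counts in Hb+NTR1, 3, 0 and 0 counts in Hb, and 4, 0 and 2 counts in control. Alcam, an adhesion molecule of the immunoglobulin superfamily, had 47.3 CPM in Hb+NTR1, 20.6 CPM in Hb and 28.0 CPM in control.

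**Figure D4:**
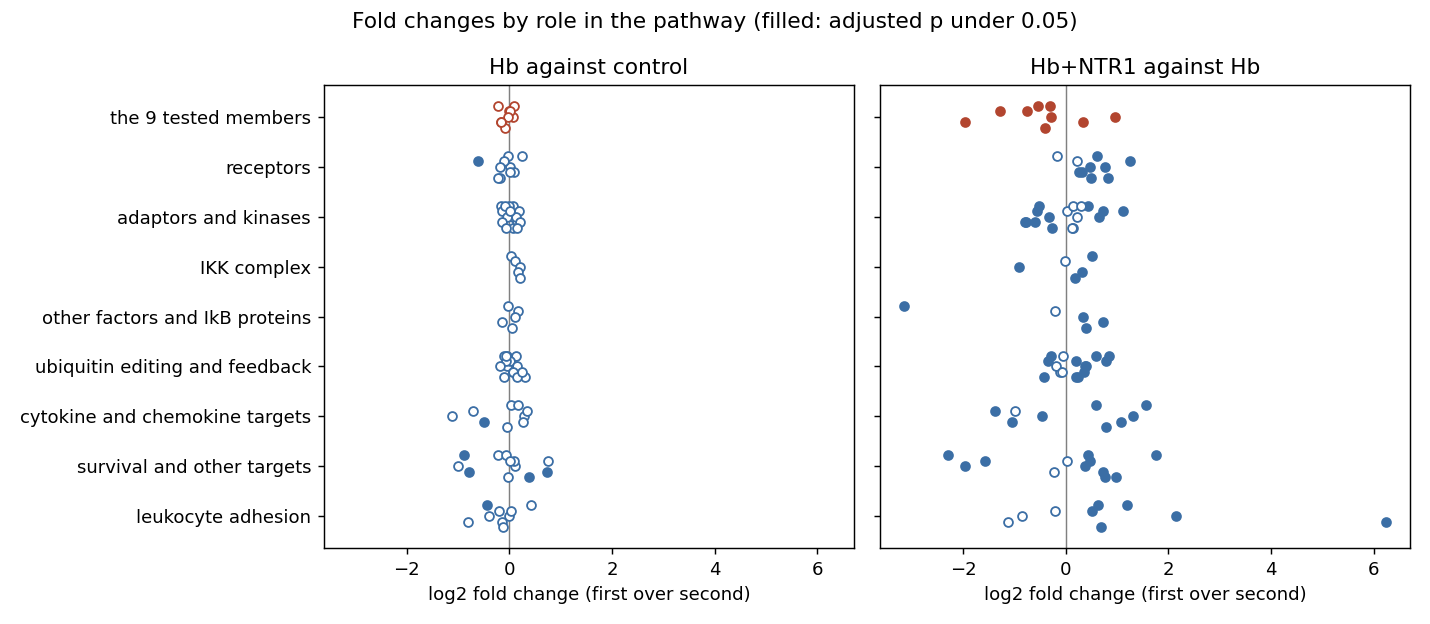
Log2 fold changes (first-named group over second) of the 9 tested members and of 83 other pathway genes by role, in Hb against control on the left and Hb+NTR1 against Hb on the right; filled points had an edgeR adjusted p under 0.05. On the right the members lie mostly left of 0 (7 of 9 lower) and the receptor genes mostly right of it (8 of 10 higher).

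**Figure D5:**
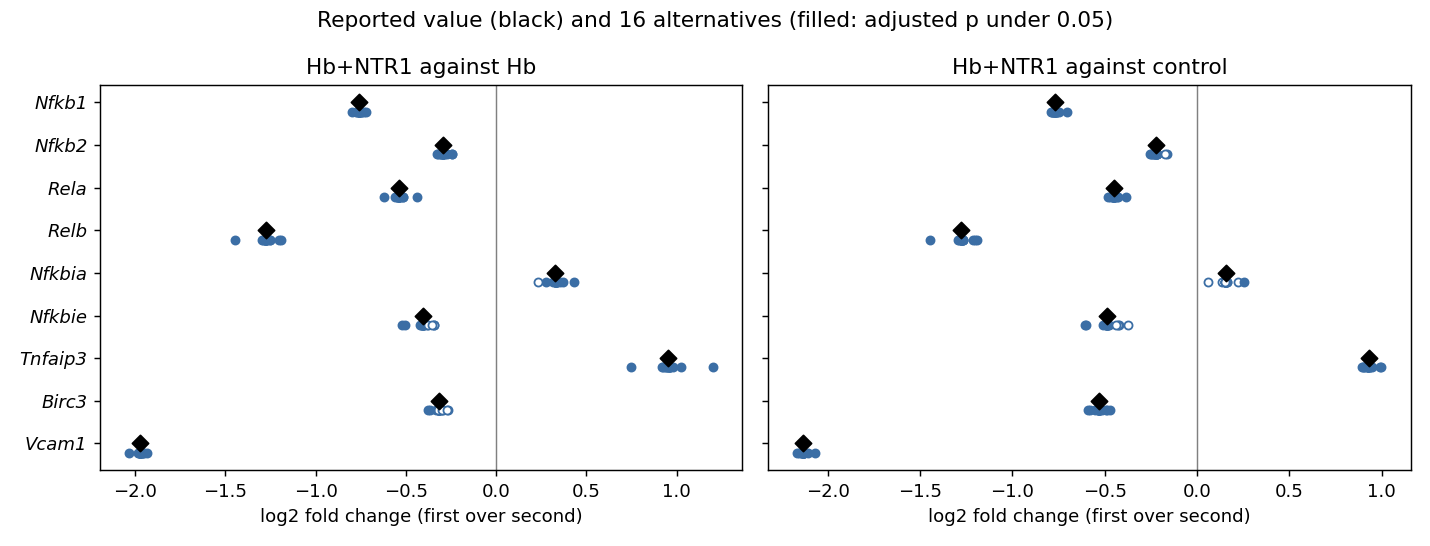
Log2 fold change of each tested member as reported (black diamonds) and under 16 alternative settings (circles, filled where the adjusted p stayed under 0.05). No reported call changed sign, and open circles occur for Nfkbia, Nfkbie and Birc3 on the left and for Nfkb2, Nfkbia and Nfkbie on the right.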

How the data were processed

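The authors deposited 1 table of raw counts by gene symbol for the 9 libraries. Per the submitters' processing notes the tools were bcl2fastq 2.19.1.403, HISAT2 2.1.0 and HTSeq 0.10.0 with GRCm38; the annotation release and the strand and multi-mapping settings are not stated there. The authors' deposited table of Hb+NTR1 against control holds counts, log2 fold changes and p-values by an unstated test. Columns beginning in N were taken as Hb+NTR1, the group that table sets against control. After removal of 98 exact repeats among 54232 entries, edgeR 4.0.16 (R 4.3.3) was run on the counts: filterByExpr with a minimum count of 10, TMM scaling, and 1 robust quasi-likelihood fit of all 9 libraries with a term for group (common biological coefficient of variation 6.90%), checked on simulated data. CPM values are on the TMM scale. The SE is the size of the log2 fold change over the square root of F. Exon lengths came from GENCODE M21. The members and lists were chosen with earlier results of these data known. Named pathway genes were at most 4 called genes per role, by size of log2 fold change, whose higher group averaged 5 CPM or more and whose libraries did not overlap. Genes of like pattern were taken among those reaching a mean of 5 CPM in their highest group. Alternatives were DESeq2 1.42.0 size factors and test, library totals, other filters, 6 libraries only, a replicate block and each library left out.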

Additional observations from a re-analysis of the deposited data

How the results depend on the processing

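Of 432 recomputed log2 fold changes of members, 413 kept their side of the threshold, 17 lost a call, 2 gained one and 0 calls changed sign. The calls of Nfkb1, Rela, Relb, Tnfaip3 and Vcam1 held under all 16 alternatives in both comparisons with Hb+NTR1. With 1 library left out, the members called ranged from 6 to 9 in Hb+NTR1 against Hb, from 7 to 8 in Hb+NTR1 against control and from 0 to 1 in Hb against control, where the 1 was Vcam1 without Hb replicate 2. Over all genes, the calls in Hb against control ranged from 285, without control replicate 2, to 1125, without Hb replicate 2, and were 504 with all libraries. In Hb+NTR1 against Hb they ranged from 7909 to 8659, and in Hb+NTR1 against control from 8006 to 9358. Replicate numbers showed no clear pairing of the libraries. Deviations from the group means of same-numbered libraries correlated at -0.0488 to 0.0953, and 2 of 9 libraries correlated best with their own number. With replicate number as a block, 9, 8 and 0 members were called in Hb+NTR1 against Hb, Hb+NTR1 against control and Hb against control, as without it. Over all genes the block gave 645 calls in Hb against control, beside 504 without it. With library totals as the scale, the share of calls that were higher in Hb against control was 65.8%, against 51.4% with TMM. With the longest transcript as gene length, a choice made after seeing the data, 4, 3 and 5 of the 10 members kept their place in the order of levels in Hb+NTR1, Hb and control. Depth limits Icam1, whose summed counts allow up to 0.275 CPM in Hb+NTR1, 0.171 CPM in Hb and 0.119 CPM in control (upper 95% exact Poisson bounds, counting error only).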
